A study of Mus musculus with 18 samples.

Results

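Arl9, Shisa3 and Sec23a are 3 of the 20979 genes measured in testes of ICR mice, and they were chosen by their measured levels, which were lower in mice given a high fat diet with streptozotocin (STZ, a toxin of the insulin-producing beta cells) than in control mice. The table held 1 value per gene in each of 18 libraries, 3 from each of 6 groups of 10-week-old mice. The groups were HFD_STZ_AOS_FMT (high fat diet, STZ and the transplant labelled as AOS at 10 mg/kg), HFD_STZ_control_FMT (high fat diet, STZ and the control transplant), HFD_STZ_AOS (high fat diet, STZ and AOS at 10 mg/kg), HFD_STZ (high fat diet and STZ), AOS (AOS at 10 mg/kg alone) and control. The labels give AOS and FMT as abbreviations only. In this field they stand for alginate oligosaccharide, a seaweed-derived sugar polymer fragment, and for faecal microbiota transplantation. The groups allow the transplants to be compared under the diet with STZ, and harm to the testis was not measured here. No group analysed here received the diet or STZ alone, so their effects cannot be told apart, and no group received a transplant without them. No label says that the 3 libraries of a group came from separate animals, so the p-values below measure variation among these samples only, part of which may be technical.

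Arl9 encodes a small GTPase of the ARF-like family, whose members switch between a GTP-bound and a GDP-bound form and recruit partners to membranes. Shisa3 encodes a membrane protein of the Shisa family, known from frog and mouse studies to hold immature Frizzled and FGF receptors in the endoplasmic reticulum and so to dampen Wnt and FGF signalling. Sec23a encodes a subunit of the inner COPII coat, which buds vesicles from the endoplasmic reticulum towards the Golgi: it activates the GTPase of Sar1, binds the cargo adaptors of the Sec24 family and is covered by the outer coat of Sec13 and Sec31. Developing spermatids rely on heavy membrane traffic to build the acrosome, a secretory vesicle that caps the sperm head.

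On build mm10 with the GENCODE vM21 annotation, Arl9 (ENSMUSG00000063820.11) lies on the plus strand at chr5:77004055-77010606. Shisa3 (ENSMUSG00000050010.8) lies on the plus strand at chr5:67607882-67623552, and its 3′ end overlaps Atp8a1, a gene of the opposite strand, by 5.412 kb. Sec23a (ENSMUSG00000020986.13) lies on the minus strand at chr12:58958383-59012017. The 250 bases upstream of each start were taken from RefSeq (GRCm38.p6) and are shown because the 3 genes had their lowest means in the same 2 groups. All 3 genes matched the table. The windows are chr5:77003805-77004054 (plus strand), chr5:67607633-67607882 (plus strand) and chr12:59012018-59012267 (minus strand), and capitals mark GGGCGG, the core of the GC box bound by Sp1-type factors, or its reverse complement CCGCCC.
Arl9: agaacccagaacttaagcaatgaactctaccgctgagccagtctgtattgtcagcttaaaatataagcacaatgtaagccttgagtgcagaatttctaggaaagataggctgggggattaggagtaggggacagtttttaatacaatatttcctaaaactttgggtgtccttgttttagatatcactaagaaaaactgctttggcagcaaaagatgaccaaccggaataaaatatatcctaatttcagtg
Shisa3: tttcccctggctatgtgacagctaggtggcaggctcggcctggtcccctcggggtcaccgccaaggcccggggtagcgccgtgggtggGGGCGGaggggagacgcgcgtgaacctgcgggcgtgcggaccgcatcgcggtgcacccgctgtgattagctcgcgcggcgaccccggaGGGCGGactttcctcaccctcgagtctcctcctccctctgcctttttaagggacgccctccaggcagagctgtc
Sec23a: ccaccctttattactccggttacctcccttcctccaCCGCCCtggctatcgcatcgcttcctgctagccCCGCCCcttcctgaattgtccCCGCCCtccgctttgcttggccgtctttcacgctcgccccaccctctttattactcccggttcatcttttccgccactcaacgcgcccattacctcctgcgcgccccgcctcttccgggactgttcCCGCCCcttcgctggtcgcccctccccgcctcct
The Arl9 window was 38.0% G or C with 2 CG dinucleotides and no capital, and 8.469% of the 32851 promoters in the table had a lower share of G and C. The Shisa3 window was 69.6% G or C with 25 CG dinucleotides and 2 GC boxes, and the Sec23a window was 64.0% G or C with 22 CG dinucleotides and 4 GC boxes. The median promoter was 52.4% G or C with 6 CG dinucleotides. Besides GGGCGG, found in 32.7% of all promoters, TATAAA (12.4%), CCAAT (33.8%) and TGACG (17.8%) were searched on both strands, and none of these 3 was found in any of the windows. The motifs were picked with the sequences in view, a match is not a binding site, and no match says only that the letters are not in this window.

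The values were read as RPKM, reads scaled to the length of the transcript and to the total of the library, so levels can be compared between genes. Estimated depth was 12110000 to 13000000 reads per library, and 13022 to 13490 genes reached 1 RPKM. The libraries carried the markers of a whole adult testis, with summed levels of 54801 to 71842 RPKM for 12 markers of elongating spermatids, 2603 to 5389 RPKM for 9 Leydig cell markers and 1022 to 1298 RPKM for 12 Sertoli cell markers. The epididymal gene Crisp1 stood above 100 RPKM in 4 libraries (HFD_STZ_AOS_FMT replicate 3, HFD_STZ_control_FMT replicate 2, HFD_STZ_AOS replicate 3 and control replicate 3, at 116.64 to 164.71 RPKM), against 0.05 to 23.11 RPKM in the others. The sum of 10 epididymal markers was 218.49 to 337.3 RPKM in these 4 and 9.99 to 57.69 RPKM in the others. The differences of the 3 genes and the counts of called genes were also computed without them. A value is given beside each printed difference of the 3 genes that moved by over 1.5 times. The counts and medians of the gene lists, the marker sums, the medians by transcript length and the likeness of pattern were not recomputed without them.

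Arl9 averaged 89.1 RPKM over the 18 libraries, above 90.2% of the 13874 tested genes, and was low in the 2 diet groups without a transplant. It measured 94.19, 92.21 and 97.31 RPKM in HFD_STZ_AOS_FMT testes and 85.77, 85.5 and 89.04 RPKM in HFD_STZ_control_FMT testes. In HFD_STZ_AOS testes it measured 79.93, 80.63 and 77.75 RPKM, against 102.45, 91.06 and 102.67 RPKM in AOS testes. In HFD_STZ testes it measured 75.38, 83.42 and 80.35 RPKM, against 100.16, 89.05 and 97.77 RPKM in control testes. The 6 libraries of HFD_STZ_AOS and HFD_STZ lay below all 12 others, and HFD_STZ_AOS_FMT overlapped both AOS and control. As group means, Arl9 stood at 98.9% of control in HFD_STZ_AOS_FMT, 90.7% in HFD_STZ_control_FMT, 83.0% in HFD_STZ_AOS, 83.3% in HFD_STZ and 103.2% in AOS. From low to high the order was HFD_STZ_AOS, HFD_STZ, HFD_STZ_control_FMT, HFD_STZ_AOS_FMT, control and AOS. Of these neighbours, HFD_STZ_AOS overlapped HFD_STZ, HFD_STZ_AOS_FMT overlapped control, and control overlapped AOS.

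Shisa3 averaged 15.2 RPKM, above 62.9% of tested genes, and was lowest in HFD_STZ_AOS. It measured 14.57, 14.48 and 16.4 RPKM in HFD_STZ_AOS_FMT testes and 15.14, 15.77 and 16.53 RPKM in HFD_STZ_control_FMT testes. In HFD_STZ_AOS testes it measured 13.23, 13.21 and 11.97 RPKM, against 15.57, 17.24 and 15.85 RPKM in AOS testes. In HFD_STZ testes it measured 14.17, 13.67 and 15.12 RPKM, against 16.71, 17.45 and 17.28 RPKM in control testes. The HFD_STZ_AOS libraries lay below those of every other group, and all other neighbours in the order (HFD_STZ, HFD_STZ_AOS_FMT, HFD_STZ_control_FMT, AOS and control, from low to high) overlapped. As group means, Shisa3 stood at 88.4% of control in HFD_STZ_AOS_FMT, 92.2% in HFD_STZ_control_FMT, 74.7% in HFD_STZ_AOS, 83.5% in HFD_STZ and 94.6% in AOS. Atp8a1, a phospholipid flippase gene that shares the 3′ end, had group means of 0.85 to 1.01 RPKM, and reads of the overlap cannot be told apart because use of strand is not given in the sources used here.

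Sec23a averaged 40.3 RPKM, above 80.3% of tested genes, and was lowest in HFD_STZ. It measured 41.28, 41.27 and 41.12 RPKM in HFD_STZ_AOS_FMT testes and 38.82, 44.99 and 44.09 RPKM in HFD_STZ_control_FMT testes. In HFD_STZ_AOS testes it measured 37.04, 39.66 and 34.39 RPKM, against 38.59, 40.91 and 41.83 RPKM in AOS testes. In HFD_STZ testes it measured 35.39, 34.48 and 34.48 RPKM, against 46.65, 45.11 and 45.01 RPKM in control testes. The control libraries lay above those of every other group, so the AOS libraries were also lower than control, and AOS overlapped HFD_STZ_AOS. As group means, Sec23a stood at 90.4% of control in HFD_STZ_AOS_FMT, 93.5% in HFD_STZ_control_FMT, 81.2% in HFD_STZ_AOS, 76.3% in HFD_STZ and 88.7% in AOS. From low to high the order was HFD_STZ, HFD_STZ_AOS, AOS, HFD_STZ_AOS_FMT, HFD_STZ_control_FMT and control, and each neighbour but the last pair overlapped.

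**Figure D1:**
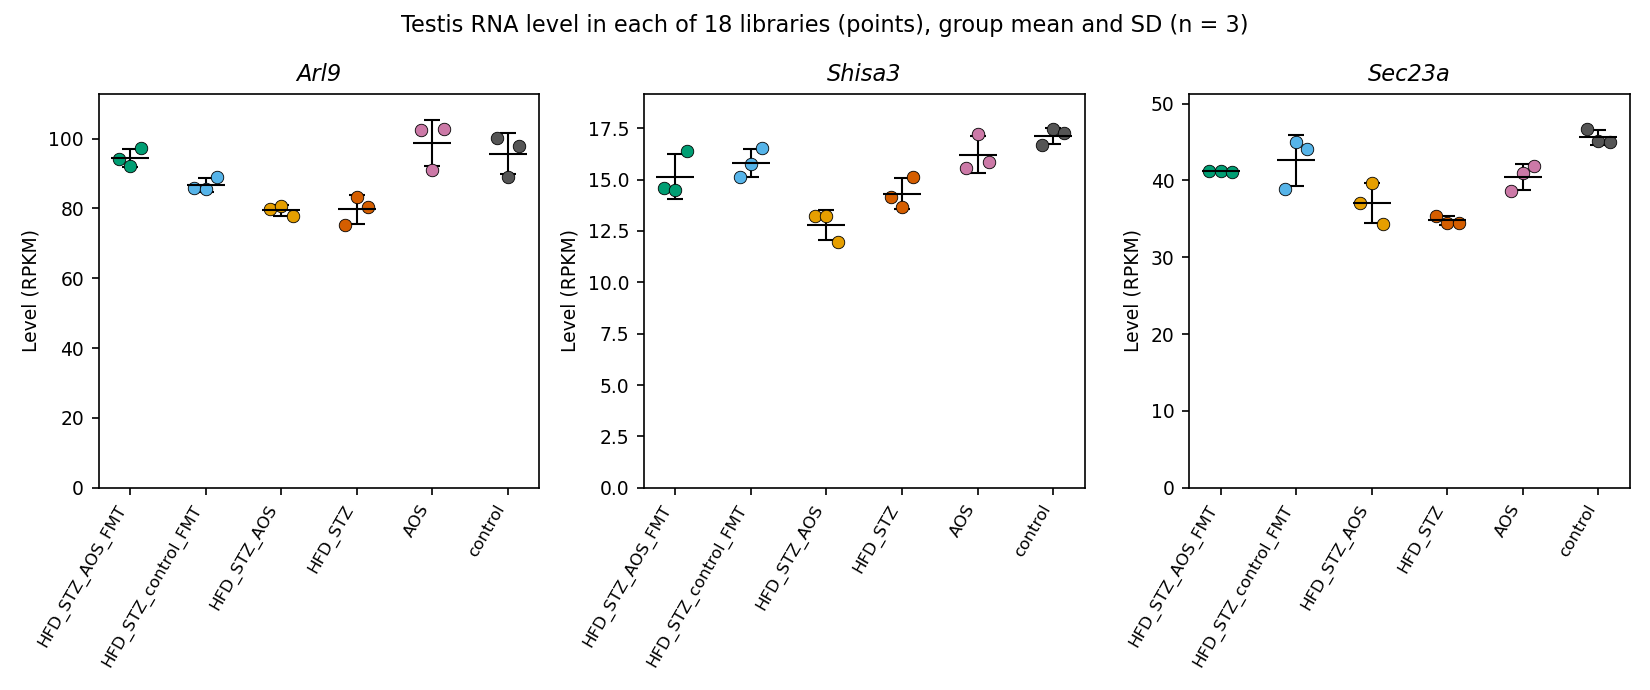
Level in RPKM of Arl9, Shisa3 and Sec23a in each library (points) of the 6 groups, with the group mean and SD (n = 3), on axes that start at 0. Arl9 lay between 75.38 and 83.42 RPKM in HFD_STZ_AOS and HFD_STZ and at 85.5 RPKM or more elsewhere, and Sec23a was highest in control.

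The depth behind these values was estimated at 514 to 697 reads per library for Arl9, 563 to 810 for Shisa3 and 1766 to 2402 for Sec23a. Counting error alone would give a coefficient of variation of 3.79 to 4.41% for Arl9, 3.51 to 4.22% for Shisa3 and 2.04 to 2.38% for Sec23a. In bulk tissue, fewer cells that express a gene and less RNA per cell cannot be told apart.

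In HFD_STZ against control, the comparison that chose the genes, mean Arl9 was 79.72 ± 4.06 RPKM in HFD_STZ and 95.66 ± 5.85 RPKM in control (SD, n = 3 each). Mean Shisa3 was 14.32 ± 0.74 RPKM in HFD_STZ and 17.15 ± 0.39 RPKM in control, and mean Sec23a was 34.78 ± 0.53 RPKM in HFD_STZ and 45.59 ± 0.92 RPKM in control (SD, n = 3 each). On the scale of log2(RPKM + 1) the differences were -0.26 ± 0.05 for Arl9, -0.25 ± 0.06 for Shisa3 and -0.38 ± 0.06 for Sec23a (estimate ± SE). They are a description and carry no test. The groups did not overlap for any of the 3 genes, and 4.53% of tested genes were lower without overlap in this comparison, a count from which nothing is read because the choice used it. Cell type markers also differed in it. All 12 Sertoli cell markers were higher in HFD_STZ, with sums of 1150 to 1167 RPKM in HFD_STZ and 1022 to 1119 RPKM in control. Over all tested genes 40.5% were lower. Of the round spermatid markers 8 of 10 were lower, with sums of 1715 to 1761 RPKM in HFD_STZ and 1779 to 1827 RPKM in control. Lower too were 7 of 10 spermatocyte and 8 of 12 elongating spermatid markers. The spermatocyte sums were 705 to 769 RPKM in HFD_STZ and 752 to 802 RPKM in control. The elongating spermatid sums were 56001 to 61954 RPKM in HFD_STZ and 54801 to 61316 RPKM in control. Both sums overlapped between the groups, and the elongating spermatid mean was higher in HFD_STZ (58394 RPKM) than in control (57295 RPKM). Of the tested spermatogonial markers 6 of 7 were higher, with sums over 8 markers of 79.44 to 84.6 RPKM in HFD_STZ and 71.42 to 76.6 RPKM in control. Endothelial markers were higher for 5 of 6. None of these markers was under 0.1 RPKM in every library, and their part in the result was not tested.

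The same contrast in mice that received AOS set HFD_STZ_AOS against AOS. Arl9 and Shisa3 were first singled out by an average over both diet contrasts, so these libraries had a part in their choice and their values here are a description too. Arl9 averaged 79.44 ± 1.5 RPKM in HFD_STZ_AOS and 98.73 ± 6.64 RPKM in AOS (SD, n = 3 each), a log2 difference of -0.31 ± 0.05 (SE). Shisa3 averaged 12.80 ± 0.72 RPKM in HFD_STZ_AOS and 16.22 ± 0.89 RPKM in AOS (SD, n = 3 each), a log2 difference of -0.32 ± 0.06 (SE). Neither gene overlapped between the groups. Of tested genes 5.3% were lower without overlap here and 0.771% in both diet contrasts. Nothing is read from these shares because the choice used both contrasts. Cell type markers also differed here. Higher in HFD_STZ_AOS were 11 of 12 Sertoli cell markers, with sums of 1162 to 1285 RPKM against 1039 to 1117 RPKM in AOS. So were 7 of 9 Leydig cell markers, at 3592 to 4211 RPKM against 2603 to 3547 RPKM in AOS. Of the elongating spermatid markers 9 of 12 were lower. Over all tested genes 64.0% were higher. The part of these markers was not tested.

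Sec23a was not chosen with these libraries, and it did not pass the test. It averaged 37.03 ± 2.64 RPKM in HFD_STZ_AOS and 40.44 ± 1.67 RPKM in AOS (SD, n = 3 each), with a log2 difference of -0.13 ± 0.06 (SE; 95% interval -0.24 to -0.01) and an adjusted p of 0.283 by limma with Benjamini-Hochberg adjustment over 13874 genes (0.0399 before adjustment, two-sided). In this comparison limma called 75 genes, or 0.541%, of which 67 were higher and 8 lower. Over all tested genes, 36.0% were lower in it, and 16.2% had an unadjusted p under 0.05. That count was 1 without AOS replicate 3 and 398 without HFD_STZ_AOS replicate 2. Without the 4 libraries high in Crisp1 the difference of Sec23a was -0.07. The interval excludes the value of -0.38 seen in HFD_STZ against control, but whether the contrasts differ was not tested because the choice of Sec23a fixed one of them. Over the 9 diet libraries the choice did not use (HFD_STZ_AOS_FMT, HFD_STZ_control_FMT and HFD_STZ_AOS), Sec23a ranged from 34.39 to 44.99 RPKM with a median of 41.12 RPKM, against 38.59, 40.91 and 41.83 RPKM in AOS. The difference of mean log2 values was -0.01, with an exact two-sided permutation p of 0.927 over 220 arrangements, which allow a smallest p of 0.00455. Without the libraries high in Crisp1 that difference was -0.0042, with an exact permutation p of 0.964. The 9 libraries pool groups with and without a transplant, while the AOS group had none. Mean Sec23a was 41.22 RPKM in HFD_STZ_AOS_FMT, 42.63 RPKM in HFD_STZ_control_FMT and 37.03 RPKM in HFD_STZ_AOS. This test therefore cannot set the diet with STZ apart from the transplant.

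AOS against control, without the diet, shares the control libraries with the choice and is described without a test. Arl9 differed by 0.04 ± 0.05, Shisa3 by -0.08 ± 0.06 and Sec23a by -0.17 ± 0.06 (log2 estimate ± SE). Sec23a did not overlap between AOS and control, as was so for 14.8% of tested genes in this direction. Under the diet, HFD_STZ_AOS against HFD_STZ, Arl9 differed by -0.00 ± 0.05, Shisa3 by -0.15 ± 0.06 and Sec23a by 0.09 ± 0.06. Without the libraries high in Crisp1 these values were 0.01 for Arl9 and 0.14 for Sec23a. Shisa3 did not overlap, being lower in HFD_STZ_AOS, as were 9.8% of tested genes.

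The transplant groups stood above HFD_STZ for most values of the 3 genes. HFD_STZ_AOS_FMT against HFD_STZ gave log2 differences of 0.24 ± 0.05 for Arl9, 0.08 ± 0.06 for Shisa3 and 0.24 ± 0.06 for Sec23a. HFD_STZ_control_FMT against HFD_STZ gave 0.12 ± 0.05 for Arl9, 0.13 ± 0.06 for Shisa3 and 0.28 ± 0.06 for Sec23a. Arl9 and Sec23a did not overlap in the contrast with HFD_STZ_AOS_FMT, and none of the 3 genes overlapped in that with HFD_STZ_control_FMT. Over all tested genes, 7.82% and 8% were higher without overlap in these contrasts. In both contrasts together the share was 3.54%, and Arl9 and Sec23a were among these genes. Both share the HFD_STZ libraries by which the genes were chosen as low, so they carry no test. Cell type markers moved with these contrasts. Of the round spermatid markers 10 of 10 were higher in HFD_STZ_AOS_FMT and 8 of 10 in HFD_STZ_control_FMT, with sums of 1782 to 1955 RPKM, 1761 to 1879 RPKM and, in HFD_STZ, 1715 to 1761 RPKM. Of the elongating spermatid markers 11 of 12 and 9 of 12 were higher, with sums of 60755 to 71842 RPKM in HFD_STZ_AOS_FMT, 61175 to 66969 RPKM in HFD_STZ_control_FMT and 56001 to 61954 RPKM in HFD_STZ. All 7 tested adipose markers were higher in both, with sums over 8 markers of 56.89 to 157.85 RPKM in HFD_STZ_AOS_FMT, 47.96 to 163.18 RPKM in HFD_STZ_control_FMT and 16.29 to 28.42 RPKM in HFD_STZ. All 6 tested epididymal markers were higher in both too, with sums over 10 markers of 28.36 to 337.3 RPKM in HFD_STZ_AOS_FMT, 16.66 to 218.49 RPKM in HFD_STZ_control_FMT and 10.3 to 16.31 RPKM in HFD_STZ. Endothelial markers were lower for 5 of 6 in both. Of the tested spermatogonial markers 6 of 7 were lower in HFD_STZ_AOS_FMT and 4 of 7 in HFD_STZ_control_FMT. In HFD_STZ_control_FMT 10 of 12 Sertoli cell, 8 of 10 spermatocyte and 7 of 9 Leydig cell markers were lower. In HFD_STZ_AOS_FMT these counts were 6 of 12, 6 of 10 and 4 of 9. Over all tested genes 56.3% were lower in HFD_STZ_AOS_FMT and 58.9% in HFD_STZ_control_FMT, each against HFD_STZ. The part of these markers in the result was not tested. HFD_STZ_AOS and AOS had no part in choosing Sec23a, but they had one in choosing Arl9 and Shisa3. The values of the transplant groups against either are a description and carry no test. Against HFD_STZ_AOS, HFD_STZ_AOS_FMT differed by 0.25 ± 0.05 for Arl9, 0.23 ± 0.06 for Shisa3 and 0.15 ± 0.06 for Sec23a. None of them overlapped (5.51% of tested genes). HFD_STZ_control_FMT against HFD_STZ_AOS gave 0.13 ± 0.05 for Arl9, 0.29 ± 0.06 for Shisa3 and 0.20 ± 0.06 for Sec23a, and Sec23a overlapped while the others did not (5.18% of tested genes). Without the libraries high in Crisp1, the difference of Shisa3 was 0.02 in HFD_STZ_AOS_FMT against HFD_STZ and 0.13 in HFD_STZ_AOS_FMT against HFD_STZ_AOS, and that of Sec23a was 0.11 in HFD_STZ_control_FMT against HFD_STZ_AOS. Against control, HFD_STZ_AOS_FMT differed by -0.01 ± 0.05 for Arl9, -0.17 ± 0.06 for Shisa3 and -0.14 ± 0.06 for Sec23a, and HFD_STZ_control_FMT by -0.14 ± 0.05, -0.11 ± 0.06 and -0.10 ± 0.06 in the same order of genes. Shisa3 and Sec23a did not overlap between HFD_STZ_AOS_FMT and control (7.8% of tested genes were lower without overlap). None of the 3 genes overlapped between HFD_STZ_control_FMT and control (11.3%), but Arl9 and Sec23a were only just apart. The highest HFD_STZ_control_FMT and lowest control values were 89.04 and 89.05 RPKM for Arl9, and 44.99 and 45.01 RPKM for Sec23a. Against AOS, Arl9 was lower without overlap in HFD_STZ_control_FMT (-0.18 ± 0.05; 4.13% of tested genes), and the other values of both transplant groups overlapped those of AOS.

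The 2 transplants were compared with each other in libraries that had no part in the choice, and no gene of the 3 passed the test. Arl9 averaged 94.57 ± 2.57 RPKM in HFD_STZ_AOS_FMT and 86.77 ± 1.97 RPKM in HFD_STZ_control_FMT (SD, n = 3 each), did not overlap (5.15% of tested genes were higher without overlap) and had a log2 difference of 0.12 ± 0.05 (SE; 95% interval 0.01 to 0.24). Its adjusted p was 0.999 by limma, and 0.0368 before adjustment. Shisa3 averaged 15.15 ± 1.08 RPKM in HFD_STZ_AOS_FMT and 15.81 ± 0.70 RPKM in HFD_STZ_control_FMT (SD, n = 3 each), with a difference of -0.06 ± 0.06 (95% interval -0.19 to 0.07; adjusted p = 0.999 by limma). Sec23a averaged 41.22 ± 0.09 RPKM in HFD_STZ_AOS_FMT and 42.63 ± 3.33 RPKM in HFD_STZ_control_FMT (SD, n = 3 each), with a difference of -0.04 ± 0.06 (95% interval -0.16 to 0.07; adjusted p = 0.999 by limma). Without the libraries high in Crisp1 the difference was -0.12 for Shisa3 and -0.0033 for Sec23a, each with an adjusted p of 1.00 by limma. Limma called 3 genes in this comparison, or 0.0216%, all higher, and 635 had an unadjusted p under 0.05.

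**Figure D2:**
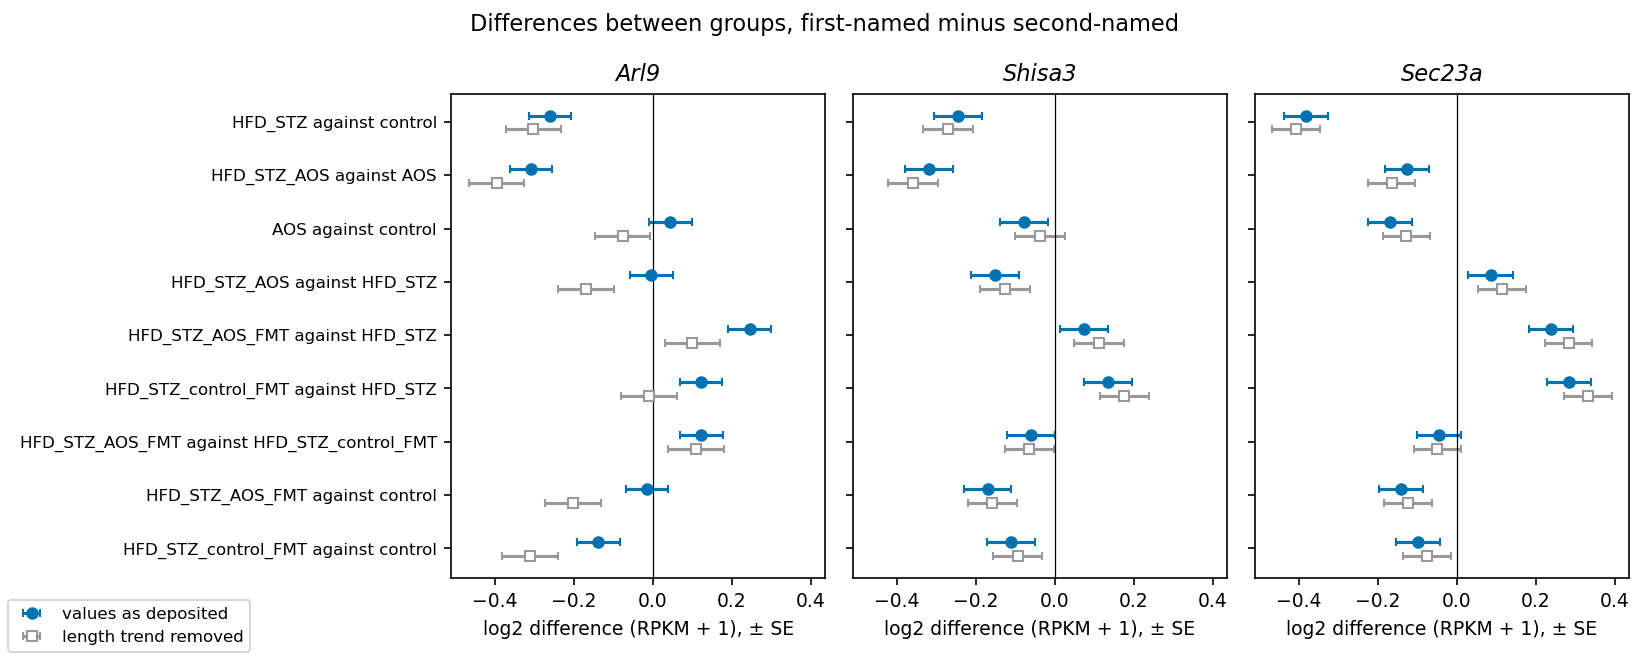
Log2 difference of RPKM + 1 (± SE) of Arl9, Shisa3 and Sec23a in 9 comparisons, as the first-named group minus the second, from the deposited values (filled) and after each library's trend on transcript length was removed (open). Sec23a is at -0.38 in HFD_STZ against control and at -0.13 in HFD_STZ_AOS against AOS, and the open point of Arl9 is at -0.20 in HFD_STZ_AOS_FMT against control, where the filled one is at -0.01.

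Transcript length moved with several of these comparisons. The longest annotated transcript is 534 nucleotides for Arl9, 3760 for Shisa3 and 4109 for Sec23a. Among 548 tested genes under 800 nucleotides, the median log2 difference was 0.13 in HFD_STZ_AOS_FMT against HFD_STZ, 0.10 in HFD_STZ_control_FMT against HFD_STZ, 0.14 in HFD_STZ_AOS against HFD_STZ and 0.09 in AOS against control. Among genes of at least 6400 nucleotides it was -0.09, -0.10, -0.07 and -0.08 in the same comparisons. In HFD_STZ_AOS against AOS the medians were 0.08 in the short class and 0.03 in the long class. In HFD_STZ against control the medians were 0.05 in the short class and 0.02 in the long class. With each library's trend on length removed, Arl9 differed by -0.30 in HFD_STZ against control and by -0.40 in HFD_STZ_AOS against AOS. It then differed by 0.10 in HFD_STZ_AOS_FMT against HFD_STZ and by -0.01 in HFD_STZ_control_FMT against HFD_STZ. In HFD_STZ_AOS_FMT against control it differed by -0.20, in HFD_STZ_control_FMT against control by -0.31, in HFD_STZ_AOS against HFD_STZ by -0.17 and in AOS against control by -0.08. With the trend removed, the difference of Arl9 was further from 0 in both diet contrasts, and Arl9 was no longer near control in HFD_STZ_AOS_FMT. The part of transcript length in these results was not otherwise tested. Sec23a then differed by 0.28 in HFD_STZ_AOS_FMT against HFD_STZ and by 0.33 in HFD_STZ_control_FMT against HFD_STZ, and Shisa3 by 0.11 and 0.18. Shisa3 differed by -0.04 in AOS against control.

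**Figure D3:**
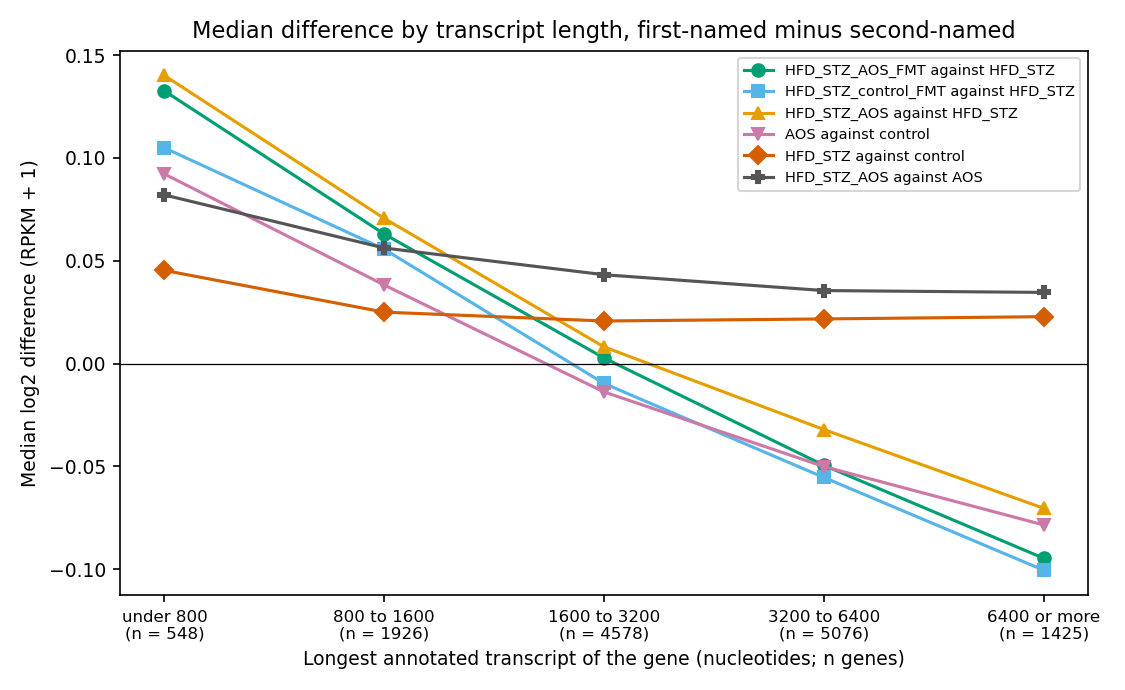
Median log2 difference of RPKM + 1 in 5 classes of longest annotated transcript, for 6 comparisons, as the first-named group minus the second. The median falls with length and changes sign in 4 comparisons, for example 0.13 under 800 nucleotides and -0.09 from 6400 nucleotides in HFD_STZ_AOS_FMT against HFD_STZ. It also falls, above 0, in HFD_STZ_AOS against AOS, and Arl9 with 534 nucleotides belongs to the shortest class.

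Sec23a was chosen for its low value, so the other genes of COPII budding are given for scale only. Of 35 listed genes of the COPII coat and of exit from the endoplasmic reticulum, 34 were tested. In HFD_STZ against control 15 were higher and 19 lower, with a median log2 difference of -0.01 against 0.02 over all genes, and the lowest was -0.11 for Preb, the exchange factor that loads Sar1 with GTP. In HFD_STZ_AOS against AOS 22 were higher and 12 lower, limma called none of them and 5 had an unadjusted p under 0.05, where 36.0% of all tested genes were lower and 16.2% had such a p. Sec23b, the paralogue that can take the place of Sec23a in the coat, averaged 18.41 ± 1.76 RPKM in HFD_STZ and 19.18 ± 0.24 RPKM in control (SD, n = 3 each), a difference of -0.06 ± 0.11 (SE). In HFD_STZ_AOS against AOS it differed by 0.01 (adjusted p = 0.988 by limma). Group means of Sec23b spanned 18.4 to 19.5 RPKM, so Sec23a was the more abundant paralogue in every group. Of the Sec24 adaptors, named here for their role, Sec24b averaged 41.61 RPKM in HFD_STZ and 42.04 RPKM in control, and Sec24c 19.96 RPKM in HFD_STZ and 20.95 RPKM in control. Sec24a averaged 8.81 RPKM in HFD_STZ and 8.60 RPKM in control, and Sec24d 1.70 RPKM in HFD_STZ and 1.88 RPKM in control. The 3 most abundant listed genes were the cargo receptors Ergic3, Ergic2 and Surf4. They differed by 0.02 ± 0.04, -0.05 ± 0.05 and -0.07 ± 0.04 in HFD_STZ against control.

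In the lists for neighbouring steps of the pathway, calls are to be read against the 0.541% of all tested genes called in HFD_STZ_AOS against AOS. Of 17 genes of the COPI coat, which returns vesicles from the Golgi, 8 were higher and 9 lower in HFD_STZ_AOS against AOS and none was called, while 4 had an unadjusted p under 0.05. Gbf1, the exchange factor that starts COPI coats, averaged 47.39 RPKM in HFD_STZ_AOS and 54.27 RPKM in AOS, a difference of -0.19 with an adjusted p of 0.0902 by limma. Arf1, the GTPase that carries the COPI coat, and Arfgap3, which ends its cycle, differed by -0.05 and -0.02 in HFD_STZ_AOS against AOS (adjusted p = 0.585 and 0.818 by limma). Of 26 tested genes of 27 for stress of the endoplasmic reticulum, limma called 1. This was Atf4, a transcription factor of the stress response, at 25.58 ± 0.91 RPKM in HFD_STZ_AOS and 21.45 ± 0.51 RPKM in AOS (SD, n = 3 each; difference 0.24 ± 0.05, adjusted p = 0.0484). Its call held in 5 of 26 alternatives, with adjusted p by limma from 0.0228 to 0.251. Of 17 tested genes for collagen, a cargo known to need Sec23a in human and zebrafish skeletal cells, and for its chaperones, 16 were higher in HFD_STZ_AOS against AOS with a median of 0.16, none was called and 2 had an unadjusted p under 0.05. In HFD_STZ against control 9 of these genes were higher and 8 lower, with a median of 0.01, and in AOS against control 3 were higher and 14 lower, with a median of -0.14. In HFD_STZ_AOS against AOS, all 8 markers of peritubular myoid cells, a source of collagen, were also higher. Their sums were 71.29, 89.34 and 115.24 RPKM in HFD_STZ_AOS and 71.22, 84.72 and 71.42 RPKM in AOS. The highest sum was that of HFD_STZ_AOS replicate 3, a library high in Crisp1. Over all tested genes, 64.0% were higher in this comparison and 16.2% had an unadjusted p under 0.05 by limma. The part of peritubular myoid cells in the result was not tested. Sparc, a collagen-binding protein, averaged 131.5 RPKM in HFD_STZ_AOS and 104.9 RPKM in AOS (adjusted p = 0.218 by limma).

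For Arl9, 30 other ARF and ARL genes were listed, 27 of them tested. In HFD_STZ against control 21 were higher and 6 lower, with a median of 0.04, and the lowest was -0.12 for Arl4d. In HFD_STZ_AOS against AOS 20 were higher and 7 lower, none was called by limma, 6 had an unadjusted p under 0.05 (16.2% of all tested genes, of which 36.0% were lower) and the lowest was -0.16 for Arl8b. Arl3, which delivers lipidated cargo to cilia and was the most abundant of the family, averaged 168.5 RPKM in HFD_STZ and 168.4 RPKM in control. Arl4a and Arf1 differed by 0.05 ± 0.05 and 0.01 ± 0.04 in HFD_STZ against control. Arl10, the paralogue named with Arl9, had group means of 0.42 to 0.71 RPKM and was too low to test. Of 16 effectors and regulators of ARL proteins 15 were tested, 10 were higher and none was called in HFD_STZ_AOS against AOS, while 3 had an unadjusted p under 0.05. The most abundant, Arl2bp, Pde6d and Arl6ip1, differed by 0.01, 0.02 and -0.09 there.

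Shisa3 was the most abundant Shisa gene in these testes. Of 10 others only 3 were tested, and Shisa5, Shisa7 and Shisa2 had group means of 4.99 to 6.86, 1.96 to 2.37 and 0.97 to 1.14 RPKM. They differed by 0.34 ± 0.23, 0.02 ± 0.07 and -0.05 ± 0.11 in HFD_STZ against control. Of 22 Frizzled, FGF and Wnt receptor genes, the kind of receptor that Shisa proteins hold back, 11 were tested, 7 were higher and 4 lower in HFD_STZ_AOS against AOS, and limma called none, with 1 at an unadjusted p under 0.05. Of these the Wnt co-receptor Lrp5 was the most abundant, at 12.57 RPKM in HFD_STZ and 13.89 RPKM in control. Of 35 targets and regulators of Wnt signalling 20 were tested, 13 were higher, none was called and 3 had an unadjusted p under 0.05 in HFD_STZ_AOS against AOS. Dkkl1, an acrosomal protein related to the Dickkopf Wnt inhibitors, averaged 1293 RPKM in HFD_STZ and 1325 RPKM in control. Ctnnb1, which encodes beta-catenin, averaged 30.89 RPKM in HFD_STZ_AOS and 26.36 RPKM in AOS (difference 0.22, adjusted p = 0.178 by limma). In HFD_STZ_AOS_FMT against HFD_STZ_control_FMT, limma called no gene of any of the 9 lists.

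**Figure D4:**
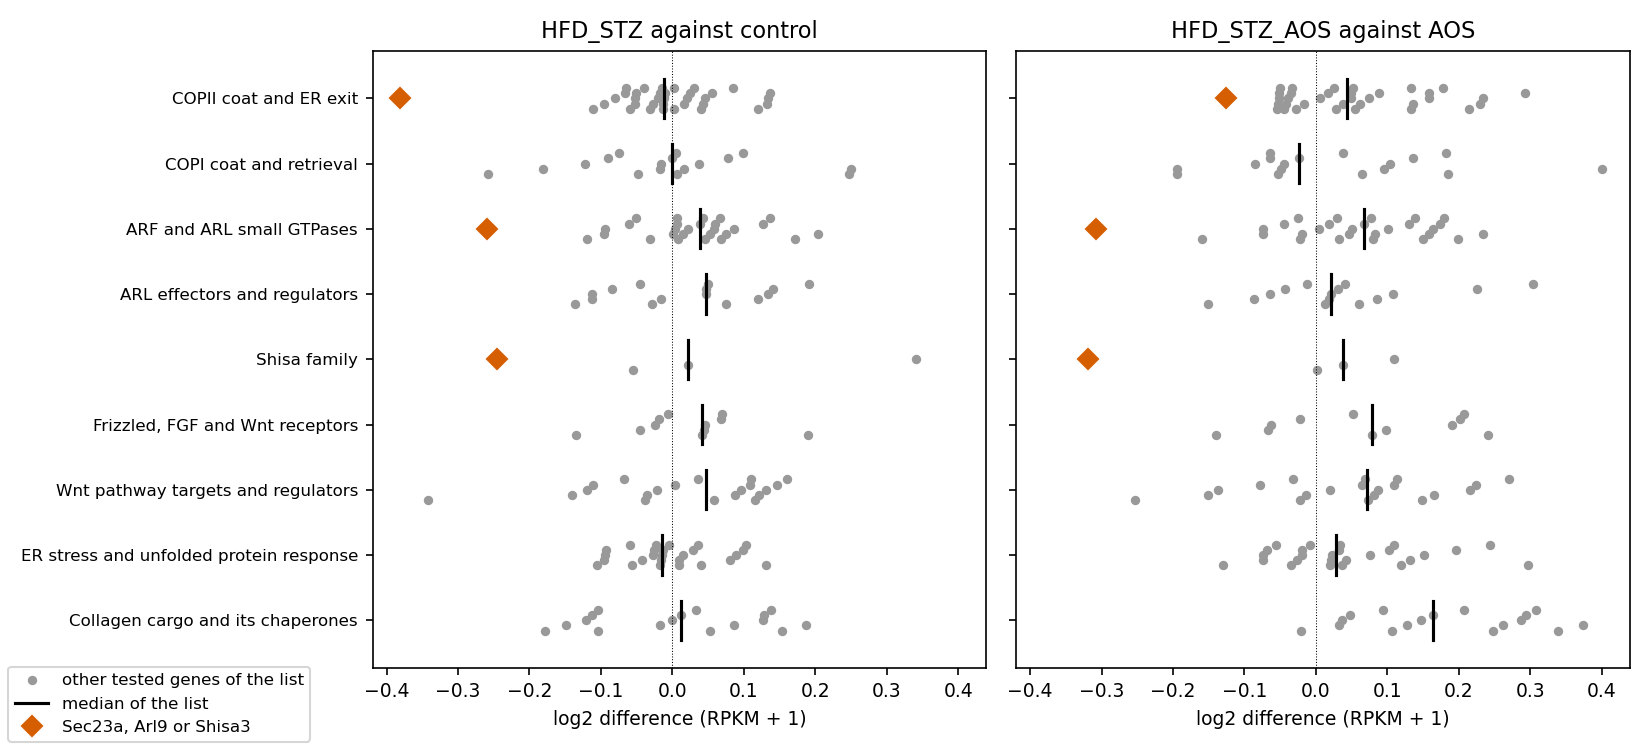
Log2 difference of RPKM + 1 of every tested gene of 9 lists (grey points, with the list's median as a bar) in HFD_STZ against control and in HFD_STZ_AOS against AOS, with Sec23a, Arl9 and Shisa3 as diamonds beside their own lists. The diamonds lie below every grey point of their lists, but the choice used the left panel for all 3 genes and the right panel for Arl9 and Shisa3. The next lowest are Preb at -0.11, Arl4d at -0.12 and Shisa2 at -0.05 in the left panel.

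The nearest protein-coding neighbours of the 3 genes had these levels. Srp72, a subunit of the signal recognition particle that lies 4.118 kb from Arl9, had a mean of 47.11 RPKM in HFD_STZ and 47.01 RPKM in control. Thegl, 5.417 kb away on the other side, had 170.5 RPKM in HFD_STZ and 169.7 RPKM in control. Gemin2, a gene of snRNP assembly that starts 1.376 kb from Sec23a on the other strand, had 4.75 RPKM in HFD_STZ and 4.38 RPKM in control. The far neighbours Clec14a of Sec23a and Bend4 of Shisa3 stayed at 0.28 to 0.47 and 2.56 to 3.13 RPKM in the group means.

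Likeness of pattern was measured as Pearson's r of log2(RPKM + 1) over the 18 libraries and is given without a test. It was sought among 8153 genes with a mean of at least 5 RPKM. Predicted genes (Gm with a number), Rik clones and names with a hyphen or a leading digit were left out. The points share their libraries, and the differences between the 6 groups enter every r. Arl9, Shisa3 and Sec23a were all chosen as lower in HFD_STZ than in control, which by itself favours a positive r between them. For Arl9 and Shisa3 the choice also used HFD_STZ_AOS against AOS. Nothing is therefore read from a positive r between any of these genes over the 18 libraries. Arl9 and Shisa3 had r = 0.66, Arl9 and Sec23a 0.65, and Shisa3 and Sec23a 0.75. Within groups, after the group means were taken off, these became -0.12, 0.09 and 0.43, so little but the pair of Shisa3 and Sec23a varied together among libraries of a group. The genes most like Arl9 were Prr3 (r = 0.81), Gpi1 (0.81), Upf3a (0.80), Grin2b (0.79) and Chaf1a (0.79). Prr3 averaged 20.37 RPKM in HFD_STZ_AOS_FMT, 18.60 in HFD_STZ_control_FMT, 17.53 in HFD_STZ_AOS, 16.43 in HFD_STZ, 20.77 in AOS and 19.51 in control. The genes most like Shisa3 were Poc1b (0.86), Tmem30c (0.85), Ckap4 (0.84), Gbf1 (0.83) and Nbr1 (0.82). Those most like Sec23a were Tmem30c (0.79), Prpf31 (0.76), Prdm8 (0.75), Shisa3 itself (0.75) and Tsnaxip1 (0.74). Tmem30c, the only gene on both of these lists besides the members, encodes a subunit of phospholipid flippases of the testis. It averaged 42.87 RPKM in HFD_STZ_AOS_FMT, 43.02 in HFD_STZ_control_FMT, 36.36 in HFD_STZ_AOS, 39.19 in HFD_STZ, 43.02 in AOS and 44.32 in control.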

How the data were processed

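RNA-seq of testis covered 18 samples, whose groups and replicate numbers come from the labels. Total RNA of frozen testes was purified by Trizol and a column and made into Illumina libraries, per the labels' protocols. Bowtie 0.12.2 and build mm10 were used, per the submitters' processing notes. Which tool, annotation and strand setting gave the gene values is not given in the sources used here. No unit is named in the 1 table that the authors deposited. The deposited values were taken as RPKM, as computed by the authors, because they are not whole, sum to unequal totals and, at low levels, step in whole multiples once scaled by length. Whether reads or fragments were counted is not stated, so read numbers and counting errors are estimates. RPKM values divide reads by gene length and library total, so that a shift in abundant or long transcripts moves all other values. Of 20985 rows, 6 with repeated symbols were left out, and 20979 genes remained, 384 of them at 0 in every library. Steps between low values gave the estimate of depth.

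Values were taken as log2(RPKM + 1), which understates changes of low genes. Genes that reached 1 RPKM in 3 or more libraries, 13874 in all, entered the test by limma (version 3.58.1, R 4.3.3; trended prior, all 18 libraries, 1 coefficient per group, two-sided, Benjamini-Hochberg adjustment over all tested genes, threshold 0.05). The plan held a count test too, which RPKM values do not allow. The procedure was tested on simulated data for HFD_STZ_AOS against AOS. It recovered 75% of log2 differences of 0.5 and 98.75% of those of 1, with 8 false calls. Smaller differences were not simulated, and the tested differences of the 3 genes were all smaller. Other steps used Python 3.11.15, numpy 2.4.6, pandas 2.3.3, scipy 1.17.1 and matplotlib 3.10.9. Counting errors cover counting only, as reads are not independent molecules.

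The 3 genes, the gene lists and the tests were chosen with earlier results of these data known. Beside the 3 genes, the text names the paralogues Arl10, Shisa2 and Sec23b, from each list up to 3 called genes or else the 3 with the highest mean, the 5 most alike genes, and the nearest protein-coding neighbours. Preb, Arl4d and Arl8b, the Sec24 genes and Crisp1 were named after their values were seen. Alternatives were another scaling, pseudocount, filter, set of fitted libraries, a replicate block, robust variance estimates, removal of the trend on transcript length (lowess, span 0.3, lengths for 97.7% of tested genes), each library left out, and omission of the 4 libraries high in Crisp1, which was added after seeing the data.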

Additional observations from a re-analysis of the deposited data

How the results depend on the processing

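Of the 4 tested differences of the 3 genes, none changed direction or side of the threshold in any of 26 alternatives. For Sec23a in HFD_STZ_AOS against AOS the difference ranged from -0.18 to -0.07 and the adjusted p by limma from 0.121 to 0.717. In HFD_STZ_AOS_FMT against HFD_STZ_control_FMT the adjusted p by limma ranged from 0.760 to 1 for Arl9, from 0.957 to 1 for Shisa3 and from 0.928 to 1 for Sec23a. The difference of Sec23a between 9 diet libraries and 3 AOS libraries was near 0 and changed sign: it ranged from -0.0412 to 0.0188 with 1 library left out, at 0.0156 without AOS replicate 3, 0.0057 without HFD_STZ_AOS replicate 1 and 0.0188 without HFD_STZ_AOS replicate 3.

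The count of 75 called genes in HFD_STZ_AOS against AOS was 18 with median-ratio scaling, 2 with no filter on low values, 2 with a fit on only these groups, 4 with the length trend removed and 1 without the 4 libraries high in Crisp1. With 1 library left out it was 1 to 398, and only omission of HFD_STZ_AOS_FMT replicate 1 (69) or HFD_STZ replicate 2 (51) kept it within 1.5 times. The count of 3 in HFD_STZ_AOS_FMT against HFD_STZ_control_FMT was 11 with no filter, 6 with a fit on only these groups and 0 without the libraries high in Crisp1 (566 genes at an unadjusted p under 0.05 by limma). With 1 library left out it was 0 to 3, and it was 0 without HFD_STZ_AOS_FMT replicate 1 or 3 (913 and 601 genes at an unadjusted p under 0.05) and 1 without replicate 2. The cause was not tested.

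With the replicate number as a block, 25 genes were called in HFD_STZ_AOS against AOS and 2 in HFD_STZ_AOS_FMT against HFD_STZ_control_FMT, and no call on the 3 genes changed. Of 45 pairs of libraries with the same number, 11 had deviations from the group means that correlated over 0.1. The highest r was 0.411 and the median 0.00, against a median of -0.01 for pairs with different numbers. Whether libraries with the same number share a batch was not tested. Depth limits what small differences can be seen: counting error alone is 2.04 to 4.41% per library for these genes.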
